A study of Mus musculus with 8 samples.

Results

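The data described here are the expression levels of 10 genes of bone morphogenetic protein (BMP) signalling in the hearts of late mouse embryos. They are 6 ligand genes (*Bmp2*, *Bmp4*, *Bmp5*, *Bmp6*, *Bmp7* and *Bmp10*), 3 receptor genes (*Bmpr1a*, *Acvr1* and *Bmpr2*) and *Smad6*, an inhibitor of the pathway. A probe set, a group of short probes read together on the array, was taken when the platform annotation gave 1 of these genes and no other. This rule found 23 probe sets of the 45101 on the array, and all 10 genes were represented. The rule itself used no measured value, but the genes were put together with earlier results of these data known.

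The samples are whole hearts of E18.5 embryos from timed matings, 5 of wild-type and 3 of 2lox/2lox (mutant) littermates, with 1 Affymetrix Mouse430 array per heart. The 2lox allele is a floxed allele of *Kdm1a* (*Aof2*), the gene of the histone demethylase Lsd1, in which no recombination had taken place. It carries point mutations in the tower domain, through which Lsd1 binds its partners, and the mutant mice are described as hypomorphic, with reduced and not absent Lsd1 function. No Cre and no drug was used, and every cell of a 2lox/2lox heart carries the allele. The study compared the genotypes to look for genes that could relate to defects of the ventricular septum in the mutant animals. The sex and the litter of a heart were not labelled, and hearts with the same replicate number in both groups are not stated to be pairs.

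BMPs are secreted proteins of the TGF-beta superfamily. A ligand dimer brings together type I receptors, such as *Bmpr1a* (Alk3) and *Acvr1* (Alk2), and type II receptors, such as *Bmpr2*. The type II receptor phosphorylates the type I receptor, which phosphorylates Smad1, Smad5 and Smad9, and these enter the nucleus with Smad4 and switch on target genes such as the *Id* genes. *Smad6* is itself a target gene, and its product blocks the signal at the receptor and at Smad1. In the heart, myocardial *Bmp2* and *Bmp4* act on the endocardial cushions and the outflow tract, which give rise to valves and the membranous septum, and *Bmp10* acts in the trabecular myocardium.

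All values are log2 expression levels that were deposited already normalized, and a difference of 1 is a fold of 2 on this scale. The array medians lay between 5.03 and 5.10, and a value near 4.21, the lower quartile over all probe sets, may be no more than background. Levels of different probe sets are not compared with each other, since probes differ in how brightly they bind. *Kdm1a* itself lay between 9.44 and 9.55 in the mutant hearts and between 10.26 and 10.36 in wild-type hearts, a log2 fold change of -0.81 (adjusted p in limma of 5.15e-04). As a sign of RNA quality, the 3′ control probe sets of *Actb* and *Gapdh* exceeded the 5′ ones on average by 0.52, 0.50 and 0.33 in mutant hearts 1, 2 and 3 and by 0.32 to 0.38 in the controls, so mutant hearts 1 and 2 stood apart from the rest. A fit with this 3′ to 5′ difference as covariate therefore rests mostly on mutant heart 3 for the genotype difference. Its values do not separate RNA quality from anything else that mutant hearts 1 and 2 share. *Xist* and Y-linked genes had the female pattern in 2lox/2lox heart 3 and wild-type heart 2 and the male pattern in the others.

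No BMP ligand, receptor or *Smad6* probe set passed the test for a difference between genotypes. Each probe set was fitted with limma as 2lox/2lox minus wild-type, and p-values were adjusted over the whole array. At a threshold of 0.05, 36 probe sets passed (0.0798% of all). The lowest limma adjusted p among the 23 was 0.234. An unadjusted p under 0.05 was reached by 3 of the 23 (13.0%), against 10.9% of all probe sets, and the values of the genotypes did not overlap in 2 of the 23 (8.70%), against 6.11% of all. Both shares are near the background when direction is set aside. All 3 with an unadjusted p under 0.05 were lower in the mutant hearts, where 4.94% of all probe sets were, and so were the 2 without overlap, against 2.71% of all. Log2 fold changes ran from -0.41 (*Bmp10*) to 0.37 (*Bmp6*), with 13 positive and 10 negative values and a median of 0.02, where the median of all probe sets was -0.0036. Of the 23, 19 had a size under 0.2, and the 95% confidence interval included 0 in 20. In tissue RNA, fewer cells of a type and less RNA per cell cannot be told apart, which holds for every value here.

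**Figure D1:**
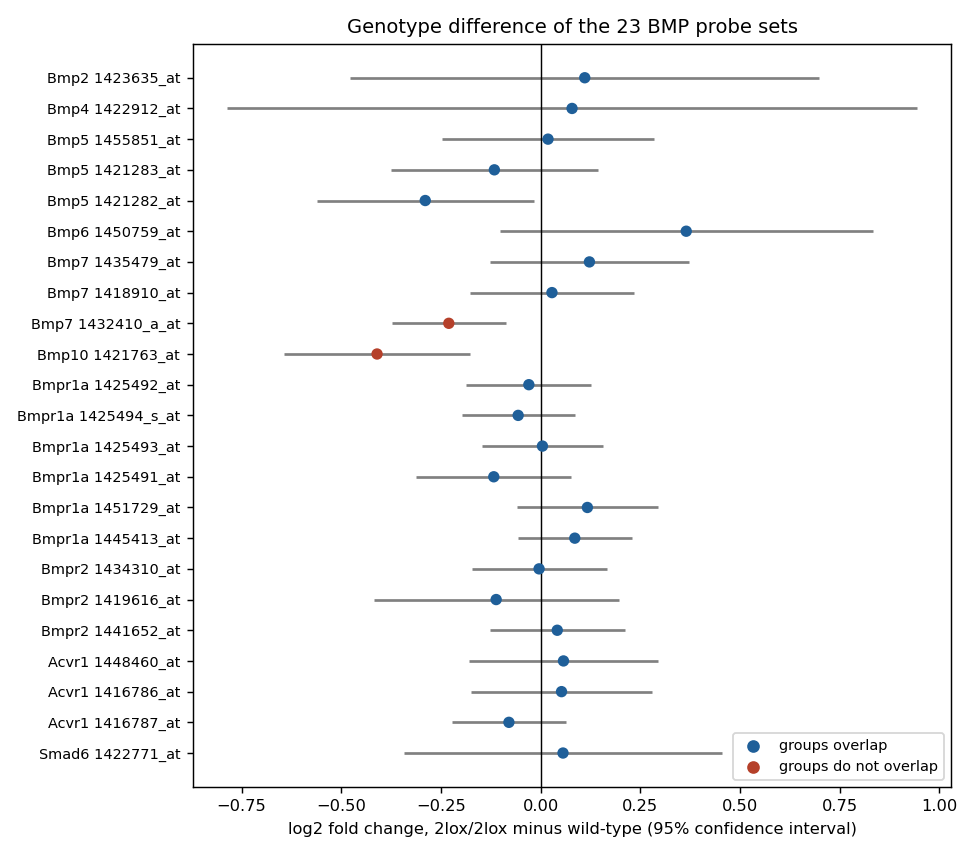
Log2 fold change (2lox/2lox minus wild-type, horizontal axis) of each of the 23 probe sets, listed by gene. Points are limma estimates, lines are 95% confidence intervals, and the 2 probe sets whose genotypes do not overlap, of *Bmp10* and *Bmp7*, are in red. The widest interval is that of *Bmp4*, from -0.79 to 0.94.

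*Bmp10* had the largest difference among the 23. It encodes a ligand of the embryonic myocardium that is made by trabecular cardiomyocytes and later by the atria, and that keeps ventricular cardiomyocytes dividing. Its probe set (1421763_at) read 5.49, 5.74 and 5.80 in 2lox/2lox hearts 1, 2 and 3 and 5.88, 6.28, 5.94, 6.17 and 6.15 in wild-type hearts 1 to 5. Every 2lox/2lox heart was thus below every wild-type heart, although 2lox/2lox heart 3 and wild-type heart 1 lay close together. The log2 fold change was -0.41 (SE 0.10, 95% confidence interval -0.64 to -0.18), a fold of 0.752, and the adjusted p in limma was 0.234. With the 3′ to 5′ difference of the control probe sets as covariate the value was -0.28 (SE 0.14). In the order of unadjusted p-values *Bmp10* held place 541 of 45101. Genes of other tissues read near its level, the germ cell ligand *Gdf9* at 5.62 to 5.84 and the lung gene *Sftpb* at 5.24 to 5.53. A part of the *Bmp10* reading may therefore be background.

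The 250 bases before the start of *Bmp10* are shown because it had the largest difference. They lie at chr6:87428744-87428993 on the plus strand of GRCm38.p6, as given by RefSeq.
Bmp10: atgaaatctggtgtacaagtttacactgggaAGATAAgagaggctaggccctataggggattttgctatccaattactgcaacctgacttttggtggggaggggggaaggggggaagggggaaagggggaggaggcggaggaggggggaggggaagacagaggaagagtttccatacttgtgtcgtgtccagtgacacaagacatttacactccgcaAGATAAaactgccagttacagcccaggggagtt
The capitals mark AGATAA, a form of the site bound by GATA factors such as Gata4, which begins 219 and 33 bases before the start. It was searched on both strands, was added after this sequence had been seen, and occurs in 9.99% of the 32817 promoter windows of this length. Of the 8 genes with an entry in the promoter table (all but *Bmp2* and *Bmp7*), *Bmp10* was the one that held it. The other form, TGATAA, the TATA box TATAAA and TNAAGTG, the site of Nkx2-5, were in none of the 8 (7.95%, 12.4% and 10.1% of all windows). *Gata4* and *Nkx2-5* are described with the target genes below.

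Markers of trabecular and conduction myocardium, where *Bmp10* is first made, are given beside it. None of the 4 genes of the list passed the test, all 4 log2 fold changes were negative, and the median was -0.38. The mean of the list, taken per heart against the wild-type mean of each gene, was -0.53, -0.42 and -0.26 in the mutant hearts and -0.07 to 0.05 in wild-type hearts. *Gja5*, the connexin of the conduction system, read 5.64, 5.72 and 6.89 in 2lox/2lox hearts 1, 2 and 3 and 6.73 to 6.90 in wild-type hearts. It was therefore lower in 2 of the 3 mutant hearts and at the wild-type level in the third, with a log2 fold change of -0.71 (adjusted p in limma of 0.320). Without 2lox/2lox heart 3 it was -1.12 (adjusted p in limma of 6.42e-04). Under that setting 797 probe sets passed over the array, against 36 with all hearts. With the 3′ to 5′ covariate the *Gja5* value was -0.05. *Slit2*, a secreted guidance protein found in trabeculae, lay between 10.25 and 10.48 in the mutant hearts and between 10.60 and 11.21 in wild-type hearts. The log2 fold change was -0.59 (adjusted p in limma of 0.170), and -0.57 with the 3′ to 5′ covariate. Without wild-type heart 5, the lowest wild-type heart for *Slit2*, the adjusted p in limma was 0.0353. Over all alternatives it ran from 0.0353 to 0.9999. *Cpne5* and *Irx3* had -0.18 and -0.13, and their groups overlapped. For *Irx3*, 2lox/2lox hearts 1 and 2 (both 8.96) lay at the wild-type mean of 8.97, and the log2 fold change, -0.38 once the 3′ to 5′ covariate was added, was -0.01 without mutant heart 3. The means of the atrial markers overlapped between genotypes and ran from -0.31 to 0.15 in the mutant hearts and from -0.31 to 0.40 in wild-type hearts. The part of trabecular tissue in the *Bmp10* value was not tested.

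*Bmp7*, a ligand with broad expression in the myocardium, was read by 3 probe sets that did not give the same picture. The brightest (1435479_at) lay between 8.69 and 9.04 in the mutant hearts and read 8.95, 8.81, 8.97, 8.65 and 8.58 in wild-type hearts, with a log2 fold change of 0.12 (adjusted p in limma of 0.768) that was -0.09 with the 3′ to 5′ covariate. The dimmest (1432410_a_at) read 7.17, 7.13 and 7.20 in the mutant hearts and 7.43, 7.37, 7.34, 7.31 and 7.54 in wild-type hearts. Here all 3 mutant hearts were below all 5 wild-type hearts, and they lay close to each other. The log2 fold change was -0.23 (SE 0.06, adjusted p in limma of 0.264), and -0.20 with the 3′ to 5′ covariate. The remaining probe set (1418910_at) lay between 7.81 and 8.21 in the mutant hearts and between 7.88 and 8.09 in wild-type hearts. Its log2 fold change was 0.03, or -0.19 with the 3′ to 5′ covariate. All 3 probe sets were thus negative with that covariate, in a fit that rests mostly on mutant heart 3.

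Whether probe sets of 1 gene differ in their genotype difference was tested on the difference between probe sets within each heart. For *Bmp7*, 1432410_a_at minus 1435479_at was lower by 0.35 in the mutant hearts (exact permutation test over hearts, two-sided, p = 0.107), and the ranges of the genotypes overlapped. Over 13 such pairs in 5 genes the lowest exact p was 0.0714, for *Bmp5*. The 8 hearts allow no p below 0.0179, which is 0.232 for a pair on its own after adjustment over 13, so the test could not have called a pair on its own and says nothing on whether the *Bmp7* probe sets differ.

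*Bmp5*, whose product is closely related to those of *Bmp6* and *Bmp7* and acts alongside them in the cushions, also had 3 probe sets. The brightest (1455851_at) read 7.97, 8.07 and 7.76 in the mutant hearts and 7.94, 8.08, 7.68, 8.16 and 7.72 in wild-type hearts, so that the mutant range lay inside the wild-type range (log2 fold change 0.02, 95% confidence interval -0.25 to 0.28). The dimmest (1421282_at) read 5.62, 5.52 and 5.73 in the mutant hearts and 6.06, 5.93, 5.56, 6.17 and 5.85 in wild-type hearts. Wild-type heart 3 fell among the mutant hearts and the other 4 lay above them. The log2 fold change was -0.29 (adjusted p in limma of 0.429), and with the 3′ to 5′ covariate it was -0.12. The germ cell ligand *Gdf9* read near this level (5.62 to 5.84), so a part of the 1421282_at reading may be background. The remaining probe set (1421283_at) had -0.12, and its groups overlapped.

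*Bmp6* had the largest positive difference, within overlapping groups. Its product is known for its role in iron balance and, with *Bmp5* and *Bmp7*, in cushion and outflow tract growth. It read 7.85, 7.69 and 7.28 in the mutant hearts and 7.49, 7.74, 6.81, 7.29 and 6.89 in wild-type hearts. 2lox/2lox heart 1 alone exceeded the highest wild-type heart, and 2lox/2lox heart 3 lay at the wild-type median. The log2 fold change was 0.37 (SE 0.21, 95% confidence interval -0.10 to 0.83, adjusted p in limma of 0.588), and 0.18 with the 3′ to 5′ covariate.

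*Bmp2* and *Bmp4*, the ligands best known for cushion formation and outflow tract septation, varied more between wild-type hearts than between genotypes. *Bmp4* read 8.76, 8.38 and 8.81 in the mutant hearts and 8.86, 9.39, 7.53, 9.20 and 7.87 in wild-type hearts. Wild-type hearts 1, 2 and 4 were high and 3 and 5 low, a 3.62-fold range, and the mutant hearts lay between these extremes. The standard deviation was 0.82 among 5 wild-type and 0.24 among 3 2lox/2lox hearts. The log2 fold change was 0.08 (95% confidence interval -0.79 to 0.94), and folds from 0.580 to 1.92 lay inside that interval. With the 3′ to 5′ covariate the log2 fold change was 0.43 (SE 0.53). *Bmp2* read 8.07, 8.28 and 7.60 in the mutant hearts and 8.22, 8.51, 7.19, 7.66 and 7.77 in wild-type hearts, a 2.48-fold range, with a log2 fold change of 0.11 (95% confidence interval -0.48 to 0.70).

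**Figure D2:**
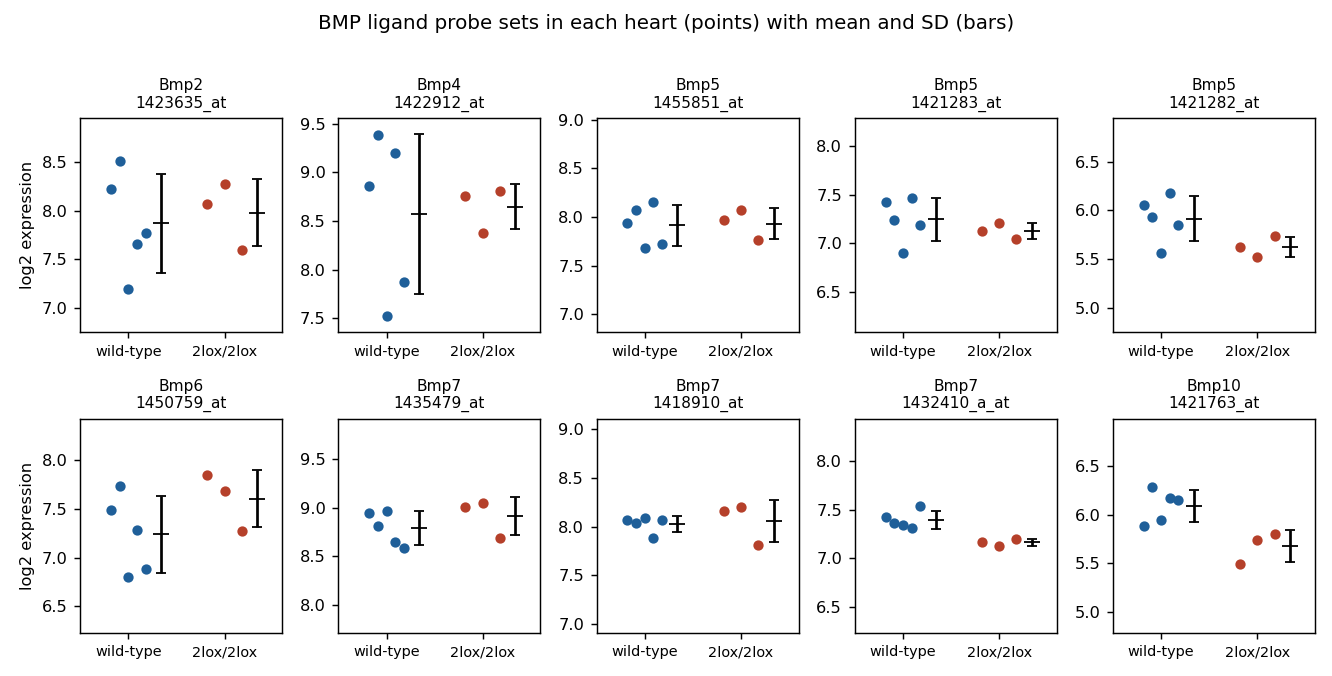
Log2 expression (vertical axis) of the ligand probe sets in each wild-type (blue) and 2lox/2lox (red) heart, in replicate order from left to right, with the mean and SD of each group as bars. Every panel spans the same range of log2 values. The groups do not overlap for *Bmp10* and for *Bmp7* 1432410_a_at, and *Bmp4* has the widest spread among wild-type hearts.

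The receptors differed little between the genotypes. The 12 receptor probe sets had log2 fold changes from -0.12 to 0.12, and every confidence interval included 0. Among wild-type hearts alone they spanned up to 1.56-fold (*Bmpr2* 1419616_at). *Bmpr1a*, the type I receptor that heart muscle and cushions need for BMP2 and BMP4, had 6 probe sets. Its brightest (1425492_at) read 10.13, 10.18 and 10.13 in the mutant hearts and 10.28, 10.31, 10.08, 10.13 and 10.08 in wild-type hearts. The mutant hearts sat within the wild-type range, with a log2 fold change of -0.03 and a 95% confidence interval of -0.19 to 0.13, so a fold change beyond 0.879 or 1.09 lay outside the interval. The others had -0.12, -0.06, 0.0045, 0.09 and 0.12. The largest of these, 1451729_at, was higher in 2lox/2lox hearts 1 and 2 (6.50 and 6.48) than in any wild-type heart (6.19 to 6.35), and 2lox/2lox heart 3 read 6.19. Its value with the 3′ to 5′ covariate was -0.06. The 0.09 was that of 1445413_at, which read 4.05 to 4.31, near the lower quartile, and may be background.

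*Acvr1*, the type I receptor of the endocardial cushions that BMP6 and BMP7 prefer, had 3 probe sets. The brightest (1448460_at) read 9.63, 9.70 and 9.60 in the mutant hearts and 9.69, 9.89, 9.38, 9.49 and 9.48 in wild-type hearts. The mutant hearts lay again inside the wild-type range, at a log2 fold change of 0.06 (95% confidence interval -0.18 to 0.29). A second probe set (1416786_at) had 0.05, with the 3 mutant hearts between 7.89 and 7.91. The third (1416787_at) was below the lower quartile in all 8 hearts, so its -0.08 may be background. *Bmpr2*, the type II receptor, read 10.85, 10.99 and 10.86 in the mutant hearts and 10.93, 11.08, 10.84, 10.87 and 10.78 in wild-type hearts on its brightest probe set (1434310_at). This gave a log2 fold change of -0.0039 (95% confidence interval -0.17 to 0.17), and the other *Bmpr2* probe sets had -0.11 and 0.04. The 0.04 was that of 1441652_at, which read 4.15 to 4.40, near the lower quartile, and may be background. The palindrome GGCGCC, which BMP-activated Smads can bind, was in the promoter windows of *Bmpr2* and *Bmpr1a*, 105 and 198 bases before the start, and in none of the other 6, against 9.59% of all windows.

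**Figure D3:**
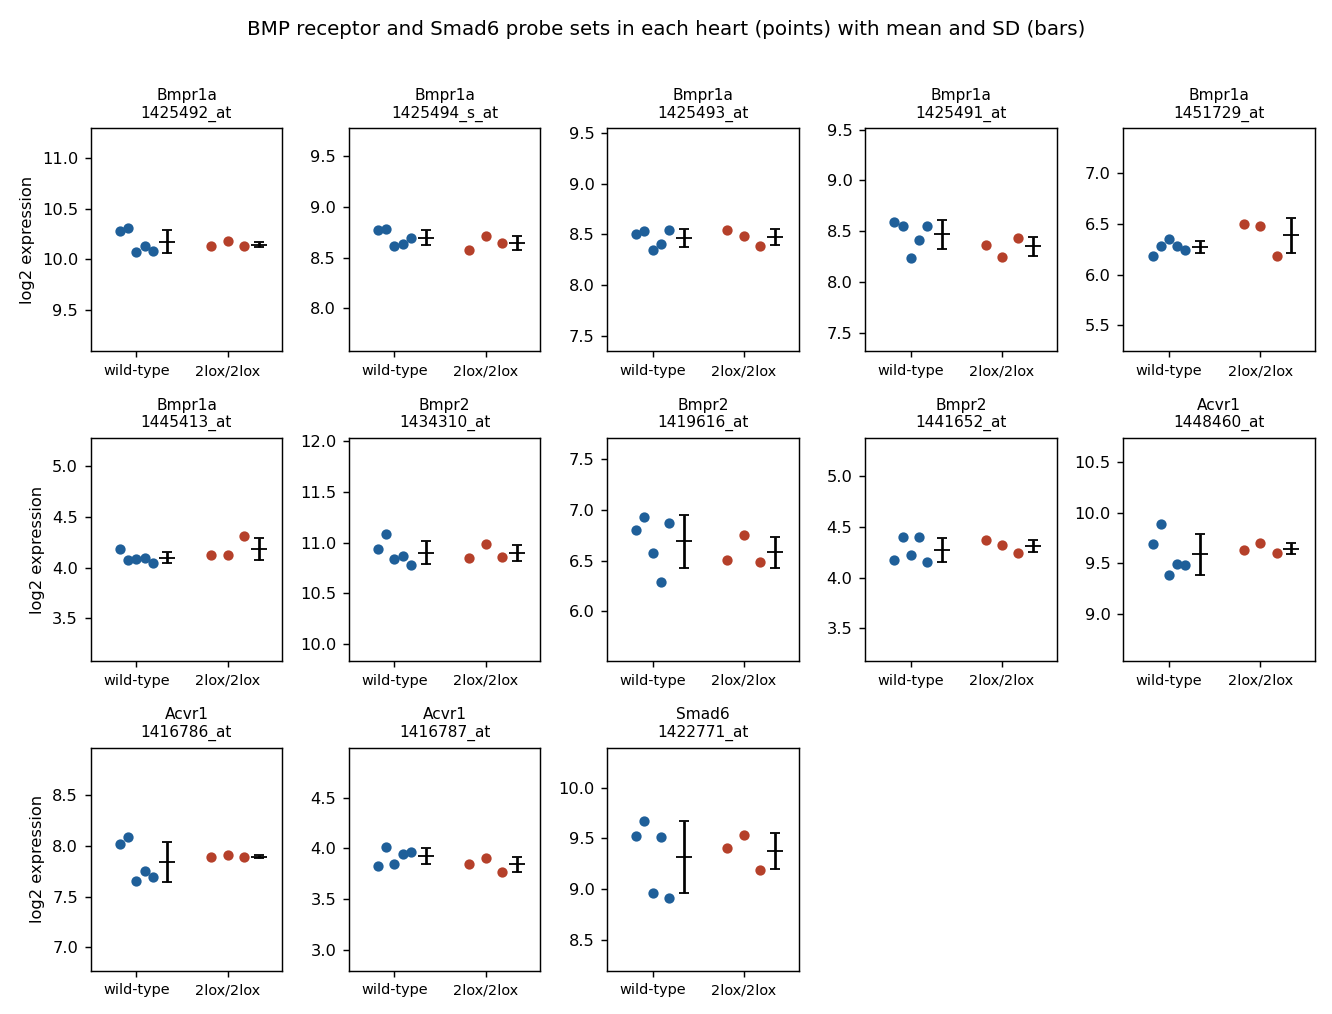
Log2 expression (vertical axis) of the receptor probe sets and *Smad6* in each wild-type (blue) and 2lox/2lox (red) heart, in replicate order, with the mean and SD of each group as bars. Every panel spans the same range of log2 values. The groups overlap in all 13 panels, and *Smad6* spreads more widely than the brightest probe set of each receptor.

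*Smad6*, the inhibitory Smad that BMP signals switch on, read 9.40, 9.53 and 9.18 in the mutant hearts and 9.52, 9.67, 8.96, 9.52 and 8.91 in wild-type hearts. The mutant range lay inside the wild-type range, with a log2 fold change of 0.06 (95% confidence interval -0.34 to 0.45, adjusted p in limma of 0.953). Wild-type hearts 3 and 5 were the low hearts, as for *Bmp4*. The promoter windows of *Smad6* and of *Bmp5*, the ligand with the highest Pearson's r to it over the 8 hearts, are shown here. They lie on chromosome 9 of GRCm38.p6, at chr9:64022060-64022309 on the minus strand and chr9:75775115-75775364 on the plus strand, as given by RefSeq, and no capitals are set because none of the searched motifs occurred.
Smad6: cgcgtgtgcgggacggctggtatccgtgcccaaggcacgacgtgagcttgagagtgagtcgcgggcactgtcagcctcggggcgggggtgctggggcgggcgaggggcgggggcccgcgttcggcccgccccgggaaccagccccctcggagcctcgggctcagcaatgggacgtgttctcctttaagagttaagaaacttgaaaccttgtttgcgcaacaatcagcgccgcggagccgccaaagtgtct
Bmp5: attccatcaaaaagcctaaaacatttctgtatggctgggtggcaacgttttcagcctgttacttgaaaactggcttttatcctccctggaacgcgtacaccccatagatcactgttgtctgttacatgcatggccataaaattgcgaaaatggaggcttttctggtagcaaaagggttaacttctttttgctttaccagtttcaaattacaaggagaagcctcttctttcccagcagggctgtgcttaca
The *Smad6* window is rich in G and C (66.8%) and the *Bmp5* window is not (42.8%).

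Differences between individual hearts ran through most of the genes. With the brightest probe set of each gene, wild-type heart 2 was the highest wild-type heart for 8 of the 10 genes, the exceptions being *Bmp5* and *Bmp7*. Wild-type heart 3 was the lowest for 6 (*Bmp2*, *Bmp4*, *Bmp5*, *Bmp6*, *Bmpr1a* and *Acvr1*) and wild-type heart 5 for 3 (*Bmp7*, *Bmpr2* and *Smad6*). *Smad6* was set against each of the 6 ligands over the 8 hearts. This comparison was chosen after the same hearts were seen to be low for *Smad6* and *Bmp4*, so its values are a description with no test. Pearson's r was 0.92 for *Bmp5*, 0.85 for *Bmp6*, 0.84 for *Bmp4*, 0.78 for *Bmp2*, 0.31 for *Bmp7* and 0.01 for *Bmp10*. Spearman's rho was 0.79, 0.74, 0.69, 0.81, 0.38 and 0.10 in the same order, so that by rank *Bmp2* and not *Bmp5* came first.

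Without the 2 hearts farthest from the median of the ligand, r stayed at 0.83 for *Bmp5* and went to 0.55 for *Bmp2*, 0.44 for *Bmp6*, 0.38 for *Bmp4*, 0.10 for *Bmp7* and -0.29 for *Bmp10*. The hearts left out were wild-type hearts 3 and 5 for *Bmp4*, *Bmp5* and *Bmp6* and wild-type hearts 3 and 2 for *Bmp2*. Leaving out the hearts at the ends also narrows the range of the ligand, which by itself tends to lower r. With the genotype means taken out, r was 0.92 for *Bmp5*, 0.92 for *Bmp6*, 0.84 for *Bmp4* and 0.78 for *Bmp2*. Markers of fibroblasts and valve mesenchyme moved in part with these hearts. The mean of that list was 0.12, 0.41, -0.32, -0.10 and -0.11 in wild-type hearts 1 to 5 and 0.08, -0.04 and 0.07 in the mutant hearts, highest in wild-type heart 2 and lowest in heart 3. Wild-type heart 2 also had the female pattern, the lowest erythroid marker mean (-0.90) and the highest endothelial marker mean (0.11) of all hearts. The part of any of these in the spread was not tested.

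*Bmp4*, which had the largest standard deviation over the 8 hearts (0.64), had close followers among other genes. After the genotype means were taken out, the genes with the highest correlation to it were *Nfatc4* (r = 0.99), a calcineurin-regulated transcription factor, *Cxcl12* (r = 0.99), a chemokine of stromal cells, and *Ndn* (r = 0.98), the imprinted gene necdin. Over the 8 hearts with the genotype means left in, r stayed at 0.99 and 0.98 for *Nfatc4* and *Cxcl12* but was 0.41 for *Ndn*, which lay between 10.27 and 10.38 in the mutant hearts and between 10.68 and 11.15 in wild-type hearts (log2 fold change -0.56, adjusted p in limma of 0.133). The 3 genes were picked as the highest over all genes, so these values describe and do not test. *Cxcl12* read 9.80 and 9.67 in wild-type hearts 2 and 4 and 8.19 and 8.40 in wild-type hearts 3 and 5, the same hearts that were high and low for *Bmp4*.

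**Figure D4:**
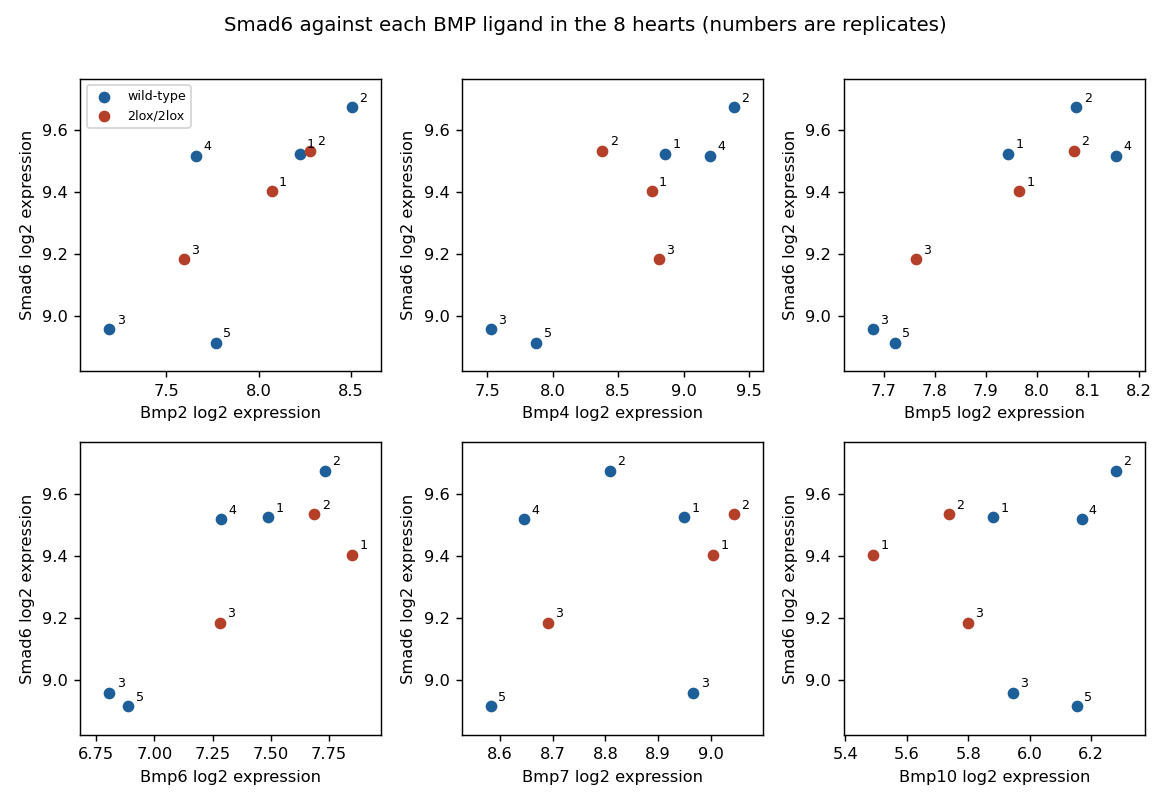
*Smad6* (vertical axis) against each BMP ligand (horizontal axis), both as log2 expression, in 5 wild-type (blue) and 3 2lox/2lox (red) hearts numbered by replicate. Wild-type hearts 3 and 5 lie at the low end of *Smad6* in every panel, and at the low end of *Bmp4*, *Bmp5* and *Bmp6* too, with r from 0.84 to 0.92 for these ligands and 0.01 for *Bmp10*.

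The rest of the pathway was read with 1 probe set per gene, the brightest. Over 18194 genes read this way, 27 passed the test (0.148%), 10.2% had an unadjusted p under 0.05 and the median log2 fold change was -0.0046. No gene passed in the lists of other ligands (9 of 14 measured, median -0.05), other receptors and co-receptors (11 of 11, median -0.02), Smads and ubiquitin ligases (7 of 7, median 0.05), antagonists and processing proteases (18 of 19, median -0.01) or target genes (15 of 15, median 0.01). Unadjusted limma p-values under 0.05 were reached by 1, 1, 0, 1 and 3 genes of these lists.

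*Fstl3* had the largest difference of the pathway. Its product is a secreted follistatin-like protein that binds activins and, more weakly, BMPs. It read 7.82, 7.81 and 7.77 in the mutant hearts and 7.40, 7.33, 7.19, 6.84 and 7.12 in wild-type hearts. All mutant hearts were above all wild-type hearts and lay close together, with a log2 fold change of 0.62 (SE 0.11, 95% confidence interval 0.37 to 0.87), a fold of 1.54. The adjusted p in limma was 0.113, and with the 3′ to 5′ covariate the log2 fold change was 0.57 (SE 0.16). Among the other antagonists *Nog* had -0.11 and *Nbl1* 0.10, and their groups overlapped.

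*Gata4*, a cardiac transcription factor that works with BMP-activated Smads, read 9.71, 9.73 and 9.44 in the mutant hearts and 9.42, 9.18, 9.37, 9.17 and 9.19 in wild-type hearts. All 3 mutant hearts were above the wild-type range, hearts 1 and 2 by a clear step and heart 3 barely. The log2 fold change was 0.36 (SE 0.09, adjusted p in limma of 0.228). Without 2lox/2lox heart 3, where 797 probe sets passed over the array, it was 0.45 (adjusted p in limma of 0.0397). With the 3′ to 5′ covariate it was 0.19. *Nkx2-5*, the homeobox factor of cardiomyocytes, had 0.27 (adjusted p in limma of 0.336). *Hey1*, a transcriptional repressor listed with the target genes, had -0.27 (adjusted p in limma of 0.290). Both genes had overlapping groups. With the 3′ to 5′ covariate they had 0.15 and -0.14.

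The *Id* genes, the usual readout of BMP signals, did not pass the test. *Id1* read 9.10, 8.95 and 9.08 in the mutant hearts and 9.27, 9.31, 8.61, 9.10 and 8.87 in wild-type hearts, a log2 fold change of 0.01. *Id2* read 10.63, 10.68 and 10.72 in the mutant hearts and 11.10, 11.30, 10.63, 11.34 and 10.70 in wild-type hearts, with -0.34 (adjusted p in limma of 0.486), or -0.20 with the 3′ to 5′ covariate. The mutant hearts were at the level of wild-type hearts 3 and 5 and below the other 3. *Id3* and *Id4* had -0.17 and -0.20, with wild-type hearts 3 and 5 again the lowest of their group.

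Among the other ligands, *Gdf2* (Bmp9), a circulating ligand of endothelium, read 5.89 to 6.08 in the mutant hearts and 6.11 to 6.26 in wild-type hearts, a log2 fold change of -0.18 (adjusted p in limma of 0.354) that was -0.28 with the 3′ to 5′ covariate. The germ cell ligand *Gdf9* had -0.07 and *Gdf3* 0.10 (0.36 with that covariate), with overlapping groups. Among the receptors, *Acvr2a* and *Acvr2b*, the activin type II receptors that BMPs also use, had 0.21 (adjusted p in limma of 0.381) and 0.20 (adjusted p in limma of 0.583), and *Eng*, the endothelial co-receptor endoglin, had 0.10. With the 3′ to 5′ covariate *Acvr2a* had 0.08 and *Acvr2b* -0.0021. Of the Smads and ligases, *Smad7*, the second inhibitory Smad, had 0.15, *Smurf1*, a ligase that marks Smad1 for breakdown, 0.14, and *Smad4* 0.11, all with overlapping groups.

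**Figure D5:**
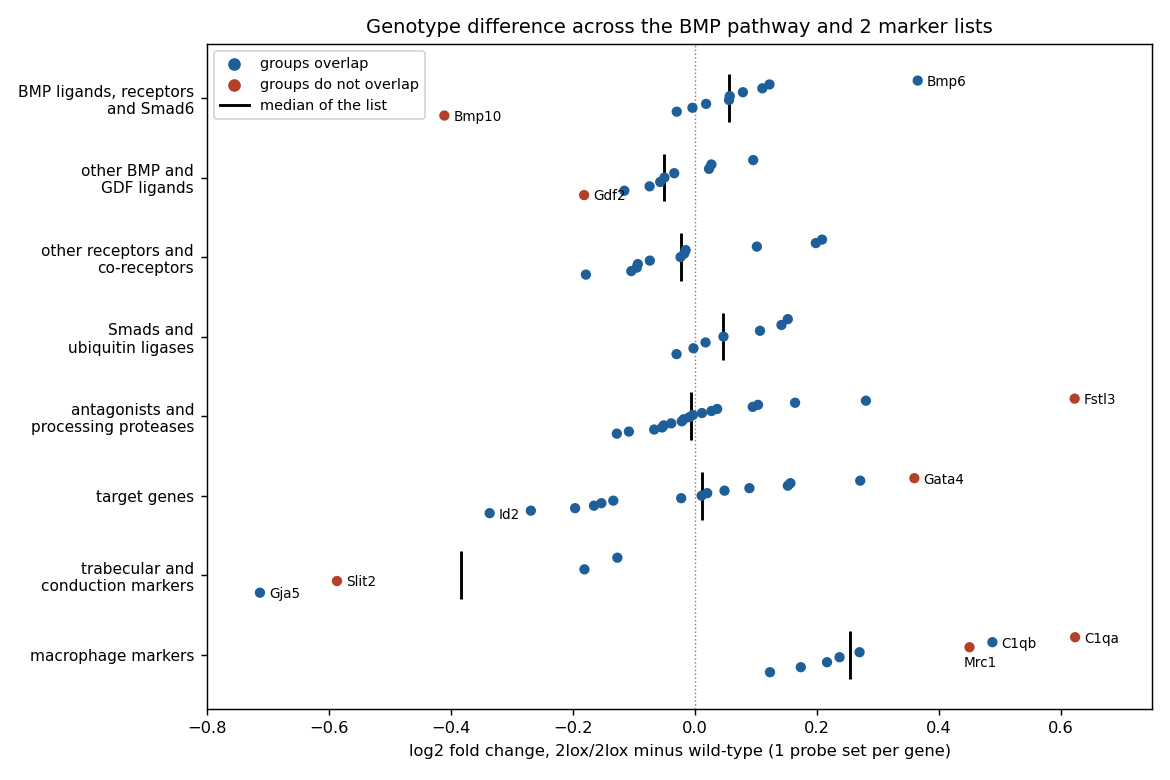
Log2 fold change (2lox/2lox minus wild-type, horizontal axis) of 1 probe set per gene in 6 lists of the BMP pathway and 2 lists of cell type markers. These 2 are the marker lists whose mean did not overlap between genotypes. Points are genes, vertical bars are list medians, and genes whose genotypes do not overlap are in red and named, as are those beyond 0.3 in size. The medians of the pathway lists lie between -0.05 and 0.06, that of the trabecular markers at -0.38 and that of the macrophage markers at 0.25.

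The heart label was borne out by its markers, with *Myh6*, *Myh7*, *Tnnt2*, *Actc1*, *Myl2* and *Myl3* above 13 in all 8 hearts. Of the markers of neighbouring organs, 3 of 4 measured for thymus and 1 of 7 measured for lung (*Scgb1a1*) were below the lower quartile in all 8 hearts. The surfactant gene *Sftpb* read 5.24 to 5.53, *Slc34a2* 5.27 to 5.50 and *Sftpc* 4.95 to 5.41. The mean of the lung list ran from -0.10 to 0.04 in the mutant hearts and from -0.07 to 0.03 in wild-type hearts. Of all marker lists, the mean lay outside the wild-type range in all 3 2lox/2lox hearts for 2, the trabecular markers given above and the macrophage markers. The cardiomyocyte, atrial, endothelial, fibroblast, epicardial, smooth muscle, lung, thymus, erythroid and liver means overlapped between genotypes. Of all single probe sets, 6.11% did not overlap, and no such share was taken for list means. All 8 macrophage genes had positive log2 fold changes and none passed, with a median of 0.25 and a list mean of 0.25 to 0.40 in the mutant hearts against -0.17 to 0.19 in wild-type hearts. The complement genes *C1qa* and *C1qb* had 0.62 and 0.49, and the mannose receptor gene *Mrc1* 0.45 (adjusted p in limma of 0.0691). With the 3′ to 5′ covariate these genes had 0.76, 0.69 and 0.43. Without 2lox/2lox heart 3, where 797 probe sets passed over the array, *Mrc1* had an adjusted p in limma of 0.0338. *Cd68* had 0.27, *Csf1r* 0.24, *Cx3cr1* 0.22, *Adgre1* 0.17 and *Fcgr1* 0.12. In the same order they had 0.36, 0.43, 0.29, 0.26 and 0.05 with the 3′ to 5′ covariate. *Fstl3* and *Gata4* moved the same way between genotypes as the macrophage markers. Among the mutant hearts, heart 3 had the highest macrophage mean (0.40) and the lowest *Gata4* (9.44), while *Fstl3* lay close together (7.77 to 7.82). This heart also differed from mutant hearts 1 and 2 in sex pattern and in the 3′ to 5′ difference. The part of macrophages in these values was not tested.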

How the data were processed

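RNA of 8 mouse hearts was read on Affymetrix Mouse430 arrays. The authors deposited log2 expression values of 45101 probe sets that were already normalized; how is not given, and the submitters' processing notes list limma with no version. Another treatment of background would alter low values most. The number of arrays, which have no depth, limits precision. Samples were grouped by their labels.

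Gene names came from the platform annotation and were brought up to date by gene identifier with a RefSeq table of GRCm38.p6 (99.4% of the 34958 probe sets of 1 gene matched; 932 had several genes and 9211 none). All probe sets were fitted by limma 3.58.1 in R 4.3.3 (lmFit and eBayes, with neither trend nor robust moderation; two-sided; Benjamini-Hochberg). Pathway and marker genes were represented by their brightest probe set. The genes named were all member probe sets, *Kdm1a*, *Id1* to *Id4*, up to 3 genes per pathway list with the smallest p, the 3 genes most like the member of largest SD, and markers of lists whose mean lay outside the wild-type range in all 2lox/2lox hearts. Markers named as a check of tissue or sex were added to these. Members and lists were chosen with earlier results of these data known. Scripts were tested on simulated data. Promoter windows hold 250 bases before the start.

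Alternatives were an intensity trend, robust moderation, quantile normalization, median centring, a filter on dim probe sets (5 or more in at least 3 hearts), array weights, a replicate block, covariates for sex and for the 3′ to 5′ difference, the gene mean over probe sets, and each heart left out. For the count of members, a fold of at least 1.4 added to the threshold was another.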

Additional observations from a re-analysis of the deposited data

Results flagged for a closer look

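Among the 5 wild-type hearts, a heart was singled out when its gap to the nearest other heart exceeded 0.71 of the whole range, Dixon's critical value, which chance passes in about 1 of 20 groups. Of 55 probe sets tested in this way, 3 had such a heart. For *Bmp7* 1418910_at it was wild-type heart 4, at 7.88 where the others read 8.04 to 8.09. For *Acvr2b* it was wild-type heart 5, at 6.56 where the others read 6.89 to 6.96. For *Cx3cr1*, a macrophage marker, it was wild-type heart 3, at 5.33 where the others read 5.84 to 6.04.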

How the results depend on the processing

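No member passed the test under any of 19 settings, and the count was 0 without each heart in turn. The settings tested all 23 probe sets, except the filter on dim probe sets (20) and the gene mean (10 genes). Of these settings, the one that added a fold of at least 1.4 to the threshold could only lower the count. The lowest adjusted p in limma was 0.0839, for *Bmp10* without 2lox/2lox heart 3. The number of other pathway genes that passed was 0 with all hearts and 0 to 1 without each heart, the 1 being *Gata4* without 2lox/2lox heart 3, a setting under which 797 probe sets passed overall. Of 398 member values under the alternatives, 357 kept their sign and 41 did not, none of them larger than 0.19. *Bmp10*, *Bmp6*, *Bmp7* 1432410_a_at and *Bmp5* 1421282_at kept theirs in every setting (*Bmp10* from -0.47 to -0.28). None of the values below passed the test.

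The replicate block gave 0 members and 0 of all probe sets past the threshold, and *Kdm1a* -0.82 (adjusted p 0.103); same-numbered hearts did not deviate together (r 0.01, -0.08 and -0.05), so the numbers were not read as pairs. With it *Bmp7* 1418910_at went to -0.0085, *Acvr1* 1448460_at to -0.0086 and 1416786_at to -0.0243, *Smad6* to -0.0119 and *Id1* to -0.0198. With the 3′ to 5′ covariate *Bmp2* went to -0.0781, *Bmp5* 1455851_at to -0.0517, *Bmp7* 1435479_at to -0.0898 and 1418910_at to -0.1876, *Bmpr1a* 1425493_at to -0.0480 and 1451729_at to -0.0620, *Bmpr2* 1441652_at to -0.0010, *Smad6* to -0.0034, *Id3* to 0.0084, *Id4* to 0.1008, *Acvr2b* to -0.0021, *Eng* to -0.0200, *Smurf1* to -0.0439 and *Smad7* to -0.0918. *Bmpr1a* 1425493_at was -0.0035 with quantile normalization and -0.0010 with median centring. *Id1* was -0.0088 with array weights and -0.0192 with sex as covariate, where *Bmp4* was -0.0217. The gene mean over probe sets was -0.1291 for *Bmp5*, -0.0266 for *Bmp7* and 0.0007 for *Bmpr1a*.

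Without each heart in turn, *Bmp2* ran from -0.0585 to 0.3030, *Bmp4* from -0.1816 to 0.2828, *Bmp5* 1455851_at from -0.0512 to 0.1040, *Bmp7* 1418910_at from -0.0445 to 0.1510, *Bmpr1a* 1425492_at from -0.0543 to 0.0030 and 1425493_at from -0.0305 to 0.0459, *Bmpr2* 1434310_at from -0.0483 to 0.0417, *Smad6* from -0.0448 to 0.1511, *Id1* from -0.0944 to 0.0798 and *Gdf3* from -0.0863 to 0.2635. Differences between probe sets within a heart ran from -0.0461 to 0.0004 (*Bmpr1a* 1425494_s_at minus 1425492_at), from -0.0091 to 0.0780 (1425493_at minus 1425492_at), from -0.0063 to 0.0854 (*Bmpr2* 1441652_at minus 1434310_at) and from -0.0245 to 0.0176 (*Acvr1* 1416786_at minus 1448460_at), where 7 hearts allow too few splits for a pair to pass on its own. The causes were not tested. The filter on dim probe sets left out 3 of the 23.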
